A study of Mus musculus with 18 samples.

Results

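Perilipins and the enzymes of lipid droplet lipolysis were examined in cultured mouse muscle cells exposed to a glucocorticoid and a ginseng saponin. The 10 genes were Plin2, Plin3, Plin4, Plin5, Pnpla2, Abhd5, G0s2, Lipe, Mgll and Dgat1. They were taken by symbol, and each matched 1 of the 48795 Ensembl gene IDs in the deposited table. The cells were C2C12 myotubes, multinucleated muscle cells obtained here by keeping a mouse myoblast line in 2% horse serum for 5 days. Poly-A RNA was sequenced from 18 libraries in 6 groups of 3. A first group received 200 µM dexamethasone, a synthetic glucocorticoid, for 24 h after 12 h with 0.1% DMSO. Companion groups received the same dexamethasone exposure after 12 h with 10 µM or with 20 µM ginsenoside Rc, a triterpenoid saponin of ginseng. The groups without dexamethasone received 0.1% DMSO (the control), 10 µM or 20 µM ginsenoside Rc for 36 h. All groups share 1 cell line, so nothing here speaks of muscle in an animal, and the labels do not say whether ginsenoside Rc stayed on during dexamethasone.

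Each library held between 32.4M and 45.4M expected counts, M standing for 1e6. The filter on low counts left 15436 genes. No label states whether replicates were cultured separately, so p-values reflect only the spread among these libraries, which could be technical. The leading principal component held 70.9% of the variance and separated the 9 libraries with dexamethasone from the 9 without. Replicate 2 of the 20 µM ginsenoside group stood apart from the other libraries on the second component, with 2.79% mitochondrial counts, against 1.26% to 1.91% in the other 17 libraries. Values without it are given beside the results at 20 µM that they change most. All 6 glucocorticoid response genes listed as a check rose with dexamethasone, among them Fkbp5, a chaperone partner of the glucocorticoid receptor, at 428 ± 12.8 CPM with dexamethasone and 23.8 ± 0.996 CPM in control (SD, n = 3 each). Myotube markers were abundant, with summed levels of 15425 to 16205 CPM over 8 genes in dexamethasone libraries and 15463 to 16033 CPM in control libraries. Within that sum 6 of the 8 rose with dexamethasone and 1 fell, Myh3, the embryonic myosin heavy chain, with 2497 CPM with dexamethasone and 4666 CPM in control. CPM are counts per 1e6 counts of a library, scaled by the trimmed mean of M values (TMM).

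Lipid droplets store triglyceride under a single phospholipid layer that carries perilipin proteins, and these coats control which enzymes reach the stored fat. Adipose triglyceride lipase, made by Pnpla2, removes the first fatty acid; the protein of Abhd5 activates it and the protein of G0s2 inhibits it. Hormone-sensitive lipase (Lipe) and monoacylglycerol lipase (Mgll) then take off the remaining fatty acids, while the enzyme made by Dgat1 closes triglyceride synthesis. In muscle the released fatty acids feed mitochondrial oxidation, and Plin5 is known for tying droplets to mitochondria in oxidative fibres.

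RefSeq promoter sequences (GRCm38.p6) were matched for 9 of the 10 genes, in 12 windows of the 250 bases before a start site. Those of 4 genes are shown because they carry the contrasts described below. Plin4 rose most, Plin5 lies next to it and was barely detected, G0s2 fell, and Plin2, like Plin5, holds a match to a single PPAR hexamer. The windows are chr17:56109783-56110032 for Plin4, chr17:56117549-56117798 for Plin5, chr1:193273189-193273438 for G0s2 and chr4:86670060-86670309 for Plin2, all on the minus strand and written 5′ to 3′. Capitals mark matches to TATAA 40 to 20 bases before the start site or to the hexamer AGGTCA on either strand (TGACCT when read on the other strand).
Plin4: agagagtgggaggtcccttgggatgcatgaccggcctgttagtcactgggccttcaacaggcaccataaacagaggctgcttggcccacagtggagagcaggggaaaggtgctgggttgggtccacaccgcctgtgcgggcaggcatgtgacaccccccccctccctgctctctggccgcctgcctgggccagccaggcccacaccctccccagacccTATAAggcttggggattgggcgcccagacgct
Plin5: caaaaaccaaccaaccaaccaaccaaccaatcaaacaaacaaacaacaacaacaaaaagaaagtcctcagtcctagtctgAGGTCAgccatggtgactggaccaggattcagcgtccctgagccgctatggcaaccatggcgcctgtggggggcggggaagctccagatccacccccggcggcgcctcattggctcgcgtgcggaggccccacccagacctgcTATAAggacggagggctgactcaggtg
G0s2: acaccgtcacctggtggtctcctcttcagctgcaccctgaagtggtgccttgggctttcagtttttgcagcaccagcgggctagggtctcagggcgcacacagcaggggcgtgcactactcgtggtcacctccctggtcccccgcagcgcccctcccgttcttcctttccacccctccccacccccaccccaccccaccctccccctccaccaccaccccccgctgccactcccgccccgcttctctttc
Plin2: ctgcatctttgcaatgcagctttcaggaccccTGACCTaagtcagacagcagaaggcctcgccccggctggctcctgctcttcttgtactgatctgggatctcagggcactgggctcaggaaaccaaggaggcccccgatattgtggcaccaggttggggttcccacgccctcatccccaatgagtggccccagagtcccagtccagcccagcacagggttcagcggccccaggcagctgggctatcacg
TATAA stood in its window in 2 of the 12 promoters, those of Plin4 and Plin5, against 3.31% of all 32851 promoters. The glucocorticoid response palindrome AGAACANNNTGTTC was found in 0 of the 12 windows and in 0.0304% of all promoters, and its single hexamer AGAACA in 1 window, of Mgll, against 16.1% of all. The PPAR direct repeat AGGTCANAGGTCA was found in 0 of the 12 windows and in 0.0335% of all promoters. Its single hexamer AGGTCA stood in 3 windows, of Plin2, Plin5 and Abhd5, against 14.0% of all promoters. A missing match says only that these letters are not in this window.

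Dexamethasone alone against control was the main contrast. Of the 9 genes that passed the filter, 6 rose (Plin4, Pnpla2, Lipe, Abhd5, Plin2 and Plin3) and 1, G0s2, fell, by edgeR's quasi-likelihood test with Benjamini-Hochberg adjusted p below 0.05 over all genes. Over all genes tested 20.6% were called higher and 23.2% lower. Mgll and Dgat1 did not pass the test, and Plin5 was not tested. The median log2 fold change of the 9 genes was 0.38, beside -0.01 over all genes. In bulk RNA, fewer cells of a type and less RNA per cell cannot be told apart.

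**Figure D1:**
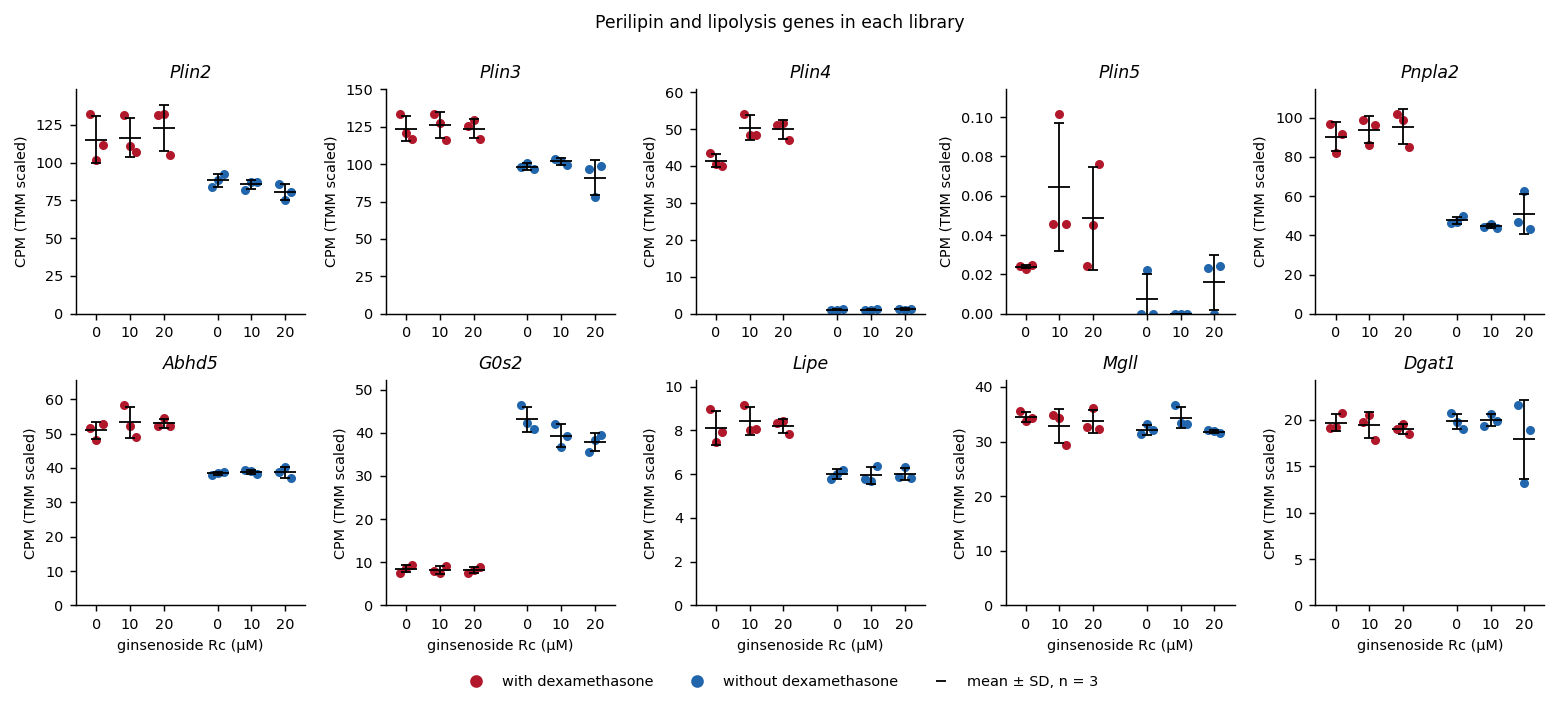
Level of each of the 10 genes (CPM, TMM scaled, linear axes from 0 with a scale of its own per gene) in the 18 libraries, by ginsenoside Rc dose in µM, with dexamethasone (red, left) and without (blue, right); black marks are the mean ± SD of 3 libraries. Plin4 stands at 40.1 CPM or more in every library with dexamethasone and at 1.42 CPM or less in every library without, and G0s2 shows the opposite order.

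Among the droplet coats, Plin4 (ENSMUSG00000002831, chromosome 17, 56100591 to 56109803, minus strand, GRCm38) changed by the largest factor. Its protein is a perilipin with a long run of amphipathic repeats, abundant in fat tissue and present in muscle. Plin4 had 43.4, 40.6 and 40.1 CPM in the dexamethasone libraries, against 0.986, 1.13 and 1.24 CPM in the control libraries. The groups did not overlap, and the lowest dexamethasone library stood far above the highest control library. The log2 fold change was 5.20 ± 0.10 (SE; 36.8-fold, 95% interval 31.6 to 42.9; edgeR adjusted p = 3.8e-17), which ranked 35 among the rises of the 15436 genes tested.

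Plin5 (ENSMUSG00000011305, chromosome 17, 56111601 to 56117596, minus strand), the perilipin of oxidative muscle and heart, was near the limit of detection throughout. No library held more than 4 counts. The 3 libraries of each group summed to 3 counts with dexamethasone alone, 8 with dexamethasone and 10 µM ginsenoside Rc, 6 with dexamethasone and 20 µM, 1 in control, 0 with 10 µM and 2 with 20 µM ginsenoside Rc. The sums of 0 to 3 are at or below the floor of 3 counts that a count of 0 allows. Those of 8 and 6 are above it, but the groups they are compared with are not, so no fold change is given. Without the low-count filter, edgeR called Plin5 higher with dexamethasone and 10 µM than with 10 µM ginsenoside Rc alone (8 counts against 0, adjusted p = 0.022) and in no other comparison.

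Plin4 and Plin5 lie 1797 bases apart on the same strand, and Plin3 lies 160 kb beyond Plin5. Of 24 annotated genes within 100 kb of these 3 perilipins, 16 were tested, counting Plin4 and Plin3; 7 rose and 3 fell with dexamethasone. Apart from Plin4, the called rises were of 0.17 to 0.44 on the log2 scale (Kdm4b and Hdgfl2). The falls were of Chaf1a (-1.30), a histone chaperone subunit of replicating cells, Uhrf1 (-2.04), a reader of hemimethylated DNA, and Tnfaip8l1 (-1.20). Hdgfl2 runs on the other strand and shares 17 bases with the end of Plin4. It had 75.1 CPM with dexamethasone and 55.5 CPM in control, so its difference was much smaller than that of Plin4.

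**Figure D2:**
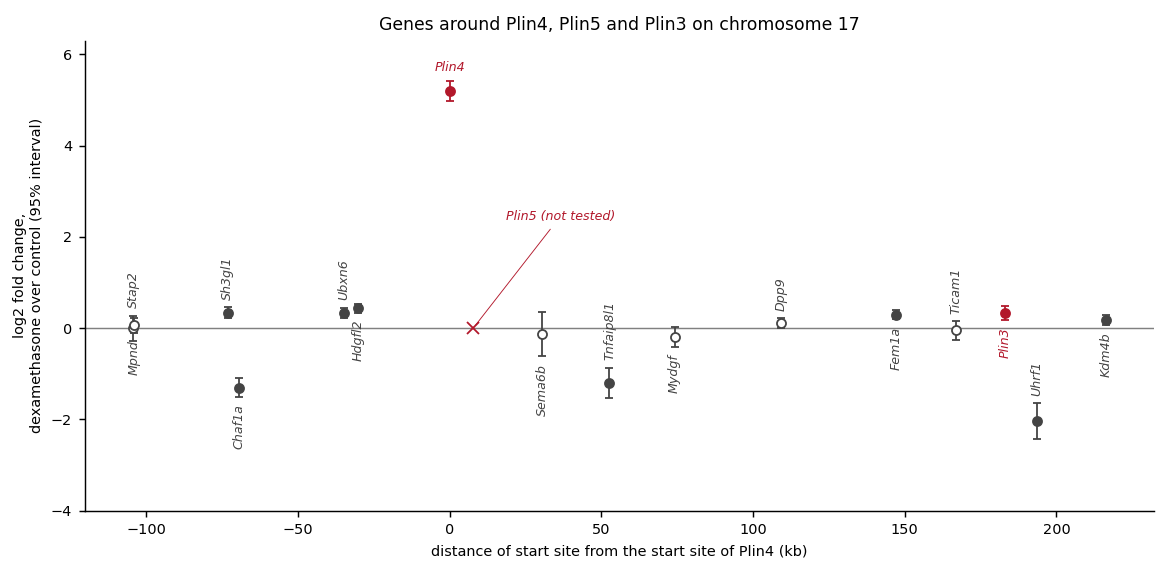
Log2 fold change of dexamethasone over control (y, with 95% interval) for the 16 tested genes within 100 kb of Plin4, Plin5 or Plin3, by the distance of each start site from that of Plin4 (x, kb); filled points passed the adjusted threshold of 0.05, perilipins are red, and the cross marks Plin5, which was not tested. Plin4 stands at 5.20, and the other tested genes lie between -2.04 and 0.44.

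Plin2 and Plin3 coat droplets in most cell types, Plin3 also being found in the cytosol. Plin2 (ENSMUSG00000028494, chromosome 4, 86648386 to 86670060) had 132, 102 and 111 CPM in the dexamethasone libraries, against 84.0, 88.5 and 92.4 CPM in the control libraries. The groups did not overlap, but the dexamethasone libraries spread more widely than the control libraries. Its log2 fold change was 0.38 ± 0.10 (1.30-fold, 95% interval 1.13 to 1.51; edgeR adjusted p = 0.0046). Plin3 (ENSMUSG00000024197, chromosome 17, 56277476 to 56292873) had 133, 121 and 117 CPM with dexamethasone, against 97.8, 101 and 96.4 CPM in control. Every dexamethasone library was above every control library, and the rise was 1.26-fold (95% interval 1.12 to 1.40; edgeR adjusted p = 0.0016).

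Levels of different genes were compared per kilobase of merged exons. On this scale Plin4 made up 9.89% ± 0.51 of the summed perilipin level in dexamethasone libraries and 0.377% ± 0.036 in control libraries (SD, n = 3 each). The summed level was 72.6 ± 6.78 CPM per kb with dexamethasone and 51.3 ± 1.21 CPM per kb in control. Plin2 held 45.0% and Plin3 45.1% of it with dexamethasone, against 49.0% and 50.6% in control. Plin2 and Plin3 held nearly equal shares in both groups, and Plin4 stayed below either.

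The lipase Pnpla2, its activator Abhd5 and its inhibitor G0s2 all changed, the inhibitor in the opposite direction. Pnpla2 (ENSMUSG00000025509, chromosome 7, 141455198 to 141460743, plus strand) had 96.8, 82.2 and 91.6 CPM with dexamethasone, against 46.6, 46.7 and 49.7 CPM in control. The groups were far apart, and the log2 fold change was 0.92 ± 0.11 (1.89-fold, 95% interval 1.62 to 2.21; edgeR adjusted p = 1.3e-06). Abhd5 (ENSMUSG00000032540, chromosome 9, 122351608 to 122381524, plus strand) averaged 50.9 ± 2.46 CPM with dexamethasone and 38.4 ± 0.518 CPM in control (SD, n = 3 each). Its groups did not overlap, and it rose 1.33-fold (95% interval 1.22 to 1.44; edgeR adjusted p = 1.2e-05).

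G0s2 (ENSMUSG00000009633, chromosome 1, 193272161 to 193273217, minus strand) had 7.62, 8.75 and 9.27 CPM with dexamethasone, against 46.4, 42.2 and 40.8 CPM in control. The highest dexamethasone library was well below the lowest control library. G0s2 fell by 2.33 ± 0.09 on the log2 scale, which is 5.04-fold lower with dexamethasone (edgeR adjusted p = 3.8e-13) and ranked 232 among the falls. G0s2 lies inside the span of Lamb3, a laminin chain gene on the other strand (193207699 to 193343878). How strand was treated in counting is not given in the sources used here. Reads of the pair therefore cannot be told apart with certainty. Only the spans of the genes were compared, not their exons. The expected counts of both genes were whole in all 18 libraries, so no division of reads between them shows in these counts. Lamb3 had 18.9 ± 0.953 CPM with dexamethasone and 51.7 ± 1.21 CPM in control, and fell by 1.45 on the log2 scale (edgeR adjusted p = 2.5e-11). At 20 µM ginsenoside Rc Lamb3 was lower than in control (-0.55, adjusted p = 0.0020), where G0s2 was not called (-0.19, adjusted p = 0.51). With dexamethasone and 20 µM it was lower than with dexamethasone alone (-0.38, adjusted p = 0.036), where G0s2 gave -0.05.

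Per kilobase, G0s2 had the highest level of the 10 genes in control, 49.5 ± 3.31 CPM per kb, where Pnpla2 had 15.8 ± 0.579. With dexamethasone G0s2 had 9.81 ± 0.971 CPM per kb and Pnpla2 29.9 ± 2.45. The ratio of G0s2 to Pnpla2 levels was 0.331 ± 0.051 with dexamethasone and 3.14 ± 0.301 in control (SD, n = 3 each). On this scale the order of lipase and inhibitor mRNA was thus opposite in the 2 groups, in all 3 libraries of each. The reversal depends on dividing by merged exon length, 0.871 kb for G0s2 and 3.02 kb for Pnpla2. In CPM without that division, control averaged 43.1 for G0s2 and 47.7 for Pnpla2, the same order as with dexamethasone. Abhd5 had 0.287 ± 0.014 of the Pnpla2 level with dexamethasone and 0.409 ± 0.011 in control.

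The lipases that act after Pnpla2 differed less. Lipe (ENSMUSG00000003123, chromosome 7, 25379527 to 25398710, minus strand) had 8.97, 7.46 and 7.91 CPM with dexamethasone, against 5.79, 6.03 and 6.21 CPM in control. The groups did not overlap, and Lipe rose 1.35-fold (95% interval 1.19 to 1.52; edgeR adjusted p = 0.00034). Mgll (ENSMUSG00000033174, chromosome 6, 88724412 to 88828360, plus strand) had 35.6, 33.8 and 34.3 CPM with dexamethasone, against 31.4, 33.2 and 32.1 CPM in control. All dexamethasone libraries were above all control libraries, but by little, and the log2 difference of 0.10 (95% interval -0.03 to 0.24) did not pass the test (adjusted p = 0.22). The spans of Abhd5, Lipe and Mgll each overlap an annotated antisense gene, with the same limit of strand as for G0s2. Expected counts of Mgll were whole in all 18 libraries, while many of those of Abhd5 and Lipe were not. The source of these fractions was not tested.

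Dgat1 (ENSMUSG00000022555, chromosome 15, 76502015 to 76511953, minus strand), the only gene of triglyceride synthesis among the 10, had 19.2, 19.2 and 20.7 CPM with dexamethasone, against 20.7, 19.8 and 19.1 CPM in control. The groups overlapped. The log2 difference was -0.01 with a 95% interval of -0.25 to 0.23, which is -15.9% to 16.9% and leaves out a change as large as that of Pnpla2.

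**Figure D3:**
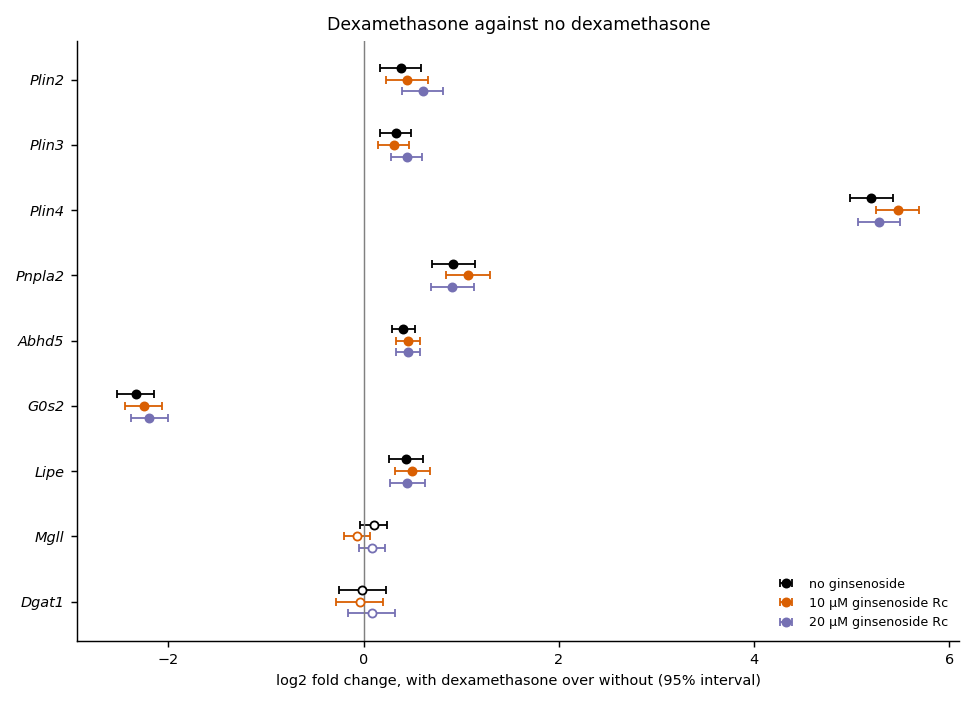
Log2 fold change with dexamethasone over without (x, points with 95% intervals) for the 9 tested genes (y) at 0 (black), 10 µM (orange) and 20 µM (purple) ginsenoside Rc; filled points passed the adjusted threshold of 0.05. Plin4 stands at 5.20 to 5.47 and G0s2 at -2.33 to -2.20 at the 3 doses, and Mgll and Dgat1 are open at each.

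Markers of other cell types moved with dexamethasone. Of 8 adipocyte markers, 2 passed the filter and both were called higher. Fabp4 passed it only through the libraries with dexamethasone, so its call was largely set by the filter. Fabp4, a fatty acid binding protein of fat cells and macrophages, had 3.68 CPM with dexamethasone and 0.00736 CPM in control, and Pparg, a nuclear receptor of fat cells, had 6.27 CPM with dexamethasone and 3.82 CPM in control. Adipoq, Lep, Plin1, Cidec and Retn held 1 to 12 counts each over all 18 libraries, and Cfd held 0. Summed over the 8 genes the level was 8.68 to 10.8 CPM in dexamethasone libraries and 3.71 to 3.91 CPM in control libraries. Nearly all of that sum came from Fabp4 and Pparg with dexamethasone, and from Pparg in control. Markers of undifferentiated or dividing myoblasts summed to 112 to 116 CPM with dexamethasone and 229 to 235 CPM in control, with 6 of 8 lower and Myf5 and Id1 higher. Of 6 fibroblast markers 5 were tested, 4 fell and Pdgfra rose, with sums of 1986 to 2459 CPM with dexamethasone and 4794 to 5287 CPM in control. Macrophage markers summed to at most 1.78 CPM in any library. Mitochondrial transcripts made up 1.68% to 1.82% of counts in dexamethasone libraries and 1.26% to 1.38% in control libraries, and ribosomal protein genes 2.23% to 2.28% in dexamethasone libraries and 2.37% to 2.63% in control libraries. The groups did not overlap in either share. The part of these differences in the results above was not tested.

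Dexamethasone was also compared with no dexamethasone at each ginsenoside dose, in libraries other than those compared in the first contrast. All contrasts share the filter, the scaling and the estimate of the spread, so their calls are not independent. With 10 µM, 6 of the 9 genes were called higher and 1 lower, beside 21.1% and 23.0% of all genes. With 20 µM the counts were again 6 and 1, beside 23.5% and 25.4% of all genes. The called genes were those named above, in the same directions. Plin4 had 54.2, 48.5 and 48.3 CPM with dexamethasone and 10 µM ginsenoside Rc, against 1.15, 0.931 and 1.31 CPM with 10 µM alone. It had 51.1, 51.7 and 47.0 CPM with dexamethasone and 20 µM, against 1.42, 1.04 and 1.34 CPM with 20 µM alone. None of these groups overlapped with its partner, and the log2 fold changes were 5.47 ± 0.10 at 10 µM and 5.28 ± 0.10 at 20 µM (SE; edgeR adjusted p = 2.3e-17 and 2.4e-17).

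The other called genes kept their directions at both doses. G0s2 averaged 8.23 ± 0.846 CPM with dexamethasone and 10 µM, against 39.3 ± 2.68 with 10 µM alone, and 8.25 ± 0.704 CPM with dexamethasone and 20 µM, against 37.8 ± 2.04 with 20 µM alone. Its log2 fold changes were -2.25 and -2.20. Pnpla2 rose by 1.07 at 10 µM and 0.91 at 20 µM, and Abhd5 by 0.45 at each dose. Plin2 rose by 0.44 and 0.61, Plin3 by 0.31 and 0.44, and Lipe by 0.50 and 0.45 on the same scale, where without ginsenoside Plin2 had 0.38. At 20 µM replicate 2 of the group without dexamethasone had 77.9 CPM of Plin3, 75.2 CPM of Plin2 and 13.2 CPM of Dgat1, each below the other 8 libraries without dexamethasone, and 62.6 CPM of Pnpla2, above them. Without that library the log2 fold changes at 20 µM were 5.17 for Plin4, 0.56 for Plin2, 0.34 for Plin3 and 1.09 for Pnpla2, all called. Dgat1 had -0.09 without it and 0.08 with it, and was not called in either case.

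Whether the response to dexamethasone differed by dose was tested by an interaction term, the log2 fold change of dexamethasone at a dose minus that without ginsenoside. At both doses 0 of the 9 genes passed, and 0% of all genes did. At an unadjusted p under 0.05 there were 327 genes at 10 µM and 816 at 20 µM, none of them among the 9, while DESeq2 called 0 genes at 10 µM and 1 at 20 µM. The interaction of Plin4 was 0.27 at 10 µM (95% interval -0.10 to 0.63) and 0.08 at 20 µM (-0.28 to 0.44), and that of G0s2 0.08 (-0.18 to 0.34) and 0.14 (-0.12 to 0.40). For these 2 genes differences as large as the responses themselves lie outside the intervals. For Plin2, with 0.23 at 20 µM (-0.07 to 0.52), and Plin3, with 0.11 (-0.11 to 0.34), that holds in 1 direction only. Their intervals take in a gain as large as the response to dexamethasone alone, while a loss as large lies outside them. Without replicate 2 of the 20 µM group the interaction at 20 µM changed sign for Plin4 (-0.03), Pnpla2 (0.16, against -0.01 with it) and Dgat1 (-0.08, against 0.09 with it), and none of the 9 was called.

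Ginsenoside Rc by itself was compared with control. With 10 µM, 0 of the 9 genes were called, beside 0.00648% of all genes, and with 20 µM 0 of 9, beside 0.104%. DESeq2 also called 0 of them at each dose. At an unadjusted p under 0.05 edgeR had 0 of the 9 at 10 µM and 1, G0s2, at 20 µM, where 392 and 1434 genes in all passed it. G0s2 had 35.6, 38.2 and 39.6 CPM with 20 µM, against 46.4, 42.2 and 40.8 CPM in control. The groups did not overlap, and the log2 difference was -0.19 (95% interval -0.36 to -0.02; unadjusted p = 0.029, edgeR adjusted p = 0.51). Differences of the other genes lay between -0.15 and 0.19 at 20 µM and those of all 9 between -0.14 and 0.09 at 10 µM. Without replicate 2 of the 20 µM group the difference of Pnpla2 was -0.08, where it was 0.09 with it, and that of Dgat1 was 0.03, where it was -0.15 with it. Lipe (-0.04) and Abhd5 (-0.02) also changed sign. Plin4 had 0.30 in place of 0.19 and Plin3 -0.01 in place of -0.11, and none of the 9 was called.

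With dexamethasone present, ginsenoside Rc was compared with dexamethasone alone. At 10 µM 0 of the 9 genes were called, beside 0.0259% of all genes, and at 20 µM 0 of 9, beside 0.369%. At an unadjusted p under 0.05 there was 1 of the 9 at each dose, Plin4. Over all genes 594 (3.85%) passed it at 10 µM and 1351 (8.75%) at 20 µM. Plin4 had 54.2, 48.5 and 48.3 CPM with 10 µM, and 51.1, 51.7 and 47.0 CPM with 20 µM, against 43.4, 40.6 and 40.1 CPM with dexamethasone alone. All 6 libraries with ginsenoside were above all 3 libraries without it. The log2 difference was 0.28 ± 0.07 at 10 µM (95% interval 0.13 to 0.43; unadjusted p = 0.00095, adjusted p = 0.57) and 0.27 ± 0.07 at 20 µM (0.12 to 0.42; unadjusted p = 0.0014, adjusted p = 0.12). Both doses share the same 3 dexamethasone libraries. The call depends on the fit. At 20 µM the adjusted p was 0.023 with DESeq2 and 0.045 with only the compared groups in the edgeR model. In edgeR without replicate 2 of the 20 µM group without dexamethasone, a library in neither compared group, it was 0.0086 at 20 µM and 0.042 at 10 µM. That removal raised the number of genes tested to 15618, but so did leaving out any other library (15607 to 15639), without a call of Plin4.

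The other 8 genes differed by -0.07 to 0.09 on the log2 scale between dexamethasone with either dose and dexamethasone alone. G0s2 gave -0.05 at each dose (95% intervals -0.25 to 0.15), Pnpla2 0.06 (-0.16 to 0.28) and 0.08 (-0.14 to 0.30), and Abhd5 0.06 at each. Between the doses 0 of the 9 genes were called, with and without dexamethasone, beside 0% of all genes in both comparisons. Without replicate 2 of the 20 µM group, 20 µM against 10 µM without dexamethasone gave 0.29 for Plin4 (0.18 with it) and 0.01 for Pnpla2 (0.19 with it). Dgat1 then had 0.02 (-0.15 with it), Plin3 -0.06 (-0.16 with it) and Lipe -0.03 (0.01 with it). Again 0 of the 9 were called. With dexamethasone, 437 genes had an unadjusted p under 0.05 and DESeq2 called 0, and without it there were 1385 such genes and DESeq2 called 3. The ratio of G0s2 to Pnpla2 levels per kilobase was 0.304 ± 0.027 with dexamethasone and 10 µM, 0.303 ± 0.056 with dexamethasone and 20 µM, and 0.331 ± 0.051 with dexamethasone alone.

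**Figure D4:**
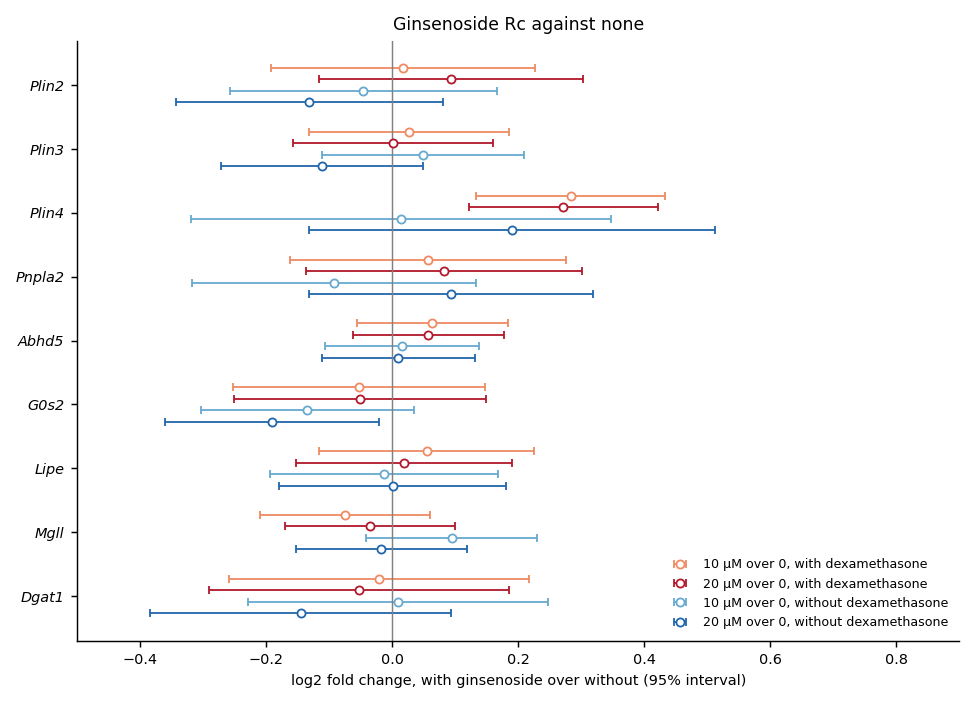
Log2 fold change with ginsenoside Rc over without (x, points with 95% intervals) for the 9 tested genes (y), at 10 µM and 20 µM with dexamethasone (light and dark red) and without it (light and dark blue); open points did not pass the adjusted threshold of 0.05, and none passed. The intervals of Plin4 with dexamethasone (0.28 and 0.27) and that of G0s2 at 20 µM without it (-0.19) are the ones that leave out 0.

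Ordered by mean level over the 6 groups, the 3 groups with dexamethasone were above the 3 without for Plin2, Plin3, Plin4, Pnpla2, Abhd5 and Lipe, and below them for G0s2. At the step between those sets of groups the ranges of the neighbouring groups did not overlap for any of the 7. These 7 were already called on the same libraries, so the separation is no further support. The share of all genes separated in this way was not counted. With dexamethasone alone 20.6% of all genes were called higher and 23.2% lower. Within the groups with dexamethasone all neighbours in the order overlapped except dexamethasone alone and dexamethasone with 20 µM for Plin4. Within those without, all neighbours overlapped except 10 µM and control for Pnpla2, which had 44.7 ± 0.903 CPM at 10 µM and 47.7 ± 1.75 CPM in control. For Mgll the group means ran from 31.8 to 34.6 CPM and for Dgat1 from 17.9 to 20.0 CPM, with every pair of neighbours overlapping.

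Other genes of the droplet pathway were read from lists. These were chosen with earlier results of these data known, so their counts and medians are no independent support. Of 16 other coat and assembly genes 14 were tested; 7 rose with dexamethasone and 2 fell, with a median log2 fold change of 0.17. Vps13c, a lipid transfer protein at droplets and other contact sites, had 88.1 ± 1.66 CPM with dexamethasone and 50.4 ± 5.01 in control, and Hsd17b11, a droplet dehydrogenase, 24.0 ± 1.49 with dexamethasone and 15.3 ± 0.849 in control. Hsd17b13, its close relative known as a liver droplet protein, had 1.51 ± 0.192 CPM with dexamethasone and 9.32 ± 0.725 in control, and fell by 2.62 on the log2 scale. Of 16 other lipases and lipase regulators 13 were tested, 6 rose and 3 fell (median 0.13). Pnpla7, a lysophospholipase of the Pnpla2 family, rose by 0.54 and Ddhd2 by 0.26. Ddhd1, a phospholipase, fell by 0.62 and Angptl4, an inhibitor of lipoprotein lipase, by 0.71.

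Of 21 listed genes of triglyceride synthesis other than Dgat1, 19 were tested, 11 rose and 3 fell, with a median log2 fold change of 0.31. Acsl1, which activates long-chain fatty acids, had 103 ± 1.71 CPM with dexamethasone and 52.0 ± 1.35 in control, and Agpat3, an acyltransferase, 412 ± 8.73 with dexamethasone and 266 ± 7.69 in control. Gpam and Lpin2, an acyltransferase and a phosphatidate phosphatase of the same route, fell by 0.21 and 0.17. Of 22 genes of the adrenergic and cyclic AMP control of lipolysis 16 were tested, 5 rose and 7 fell (median -0.12). Prkar2b and Prkar2a, regulatory subunits of protein kinase A, rose by 1.00 and 0.90. Adcy7, an adenylyl cyclase, fell by 1.27 and Pde4b, a cyclic AMP phosphodiesterase, by 0.71.

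PPAR factors, fatty acid uptake genes and PPAR targets gave 13 rises and 2 falls among 21 tested of 22 listed (median 0.40). Fabp4 is among these rises, although it passed the filter only through the libraries with dexamethasone. Pdk4, the kinase that turns off pyruvate dehydrogenase, had 154 ± 20.8 CPM with dexamethasone and 21.0 ± 0.125 in control. Cd36, a fatty acid transporter, had 63.2 ± 7.27 CPM with dexamethasone and 34.6 ± 0.895 in control. Angptl4, which is in this list too, fell, as did Ucp2, a mitochondrial carrier, by 0.39. The median over all genes was -0.01, with 20.6% called higher and 23.2% lower. With 10 µM the rises and falls were 6 and 3 of 14 for coat and assembly genes, 7 and 4 of 13 for lipases, 12 and 3 of 19 for synthesis, 6 and 8 of 16 for cyclic AMP control and 12 and 2 of 21 for PPAR genes. With 20 µM they were 6 and 2, 7 and 3, 13 and 2, 5 and 7, and 14 and 2 of the same totals. None of the genes in these lists was called in a comparison of ginsenoside with its control or in an interaction.

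**Figure D5:**
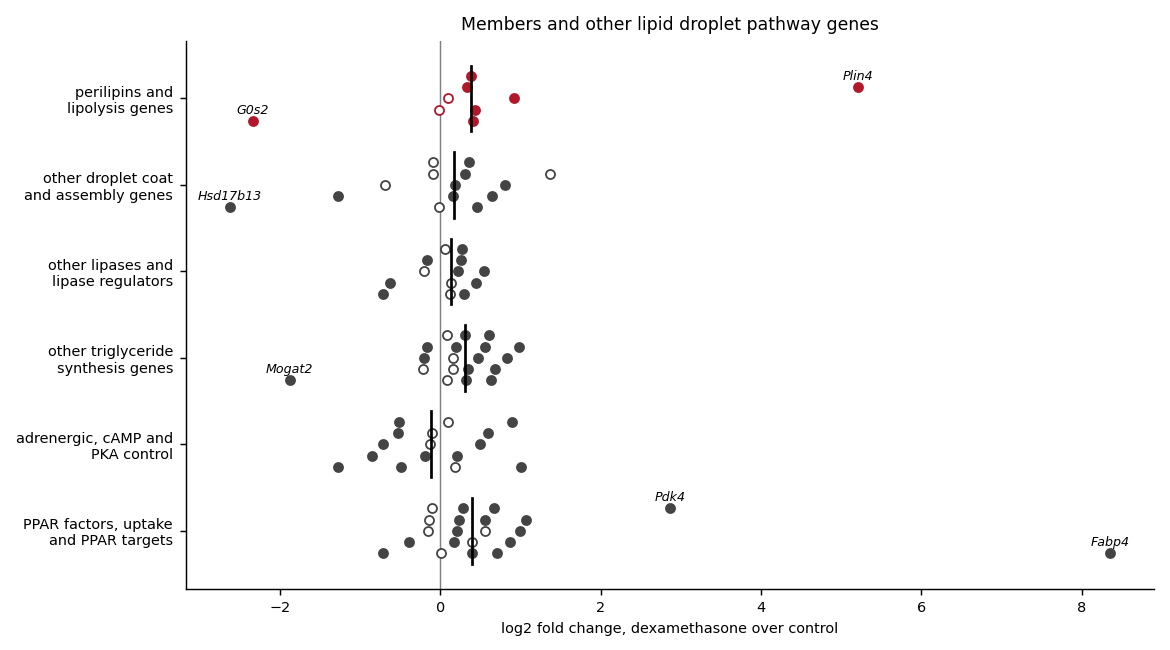
Log2 fold change of dexamethasone over control (x) for the 9 tested perilipin and lipolysis genes (red) and the tested genes of 5 other lists (grey), each point a gene and filled where it passed the adjusted threshold of 0.05; black bars are medians. Plin4 (5.20) and G0s2 (-2.33) lie outside most of the genes shown; the fitted value of Fabp4 rests on control libraries with almost no counts and is no measure of its size.

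Genes whose pattern over the 18 libraries was most like that of Plin4 or G0s2, the genes with a log2 change of at least 1, were found among 11674 genes. Likeness was the root mean square difference of centred log2 CPM, for which a smaller value is closer. For Plin4 the nearest were Klf15, a glucocorticoid-induced transcription factor, at 0.317, Ifi207 at 0.367 and 4930486L24Rik at 0.406. Their log2 fold changes with dexamethasone alone were 5.26, 5.00 and 5.72. For G0s2 the nearest were Kcnh2, a potassium channel, at 0.127, Tmem86a at 0.130 and Col1a1, a collagen chain and fibroblast marker, at 0.131. Their log2 fold changes were -2.28, -2.27 and -2.18. All of these values share the same 18 libraries, whose largest difference is dexamethasone.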

How the data were processed

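Expected counts, as RSEM estimates them, were deposited by the authors for 48795 gene IDs in 18 libraries of 100 bp paired-end reads. Tools credited in the submitters' processing notes are RSEM 1.3.3, STAR 2.7.3a, Trim Galore 0.6.5 and FastQC 0.11.9, with build GRCm38. No annotation or strand setting was given, although the labels' protocols describe a directional library kit. GENCODE mouse release 21 named 48435 IDs. The 360 without a name, 0.0185% of counts, were kept. Of the deposited expected counts 9.27% were not whole, and all were rounded. Of 27028 genes with any count, filterByExpr kept 15436. They were scaled by TMM and fitted with edgeR 4.0.16 in R 4.3.3 (robust quasi-likelihood, 1 mean per group, all 18 libraries), with Benjamini-Hochberg adjustment at 0.05. Standard errors were taken from the log2 fold change and F. Log2 CPM used a prior count of 2. The test was checked on simulated data. Far fewer genes were changed there than were called with dexamethasone here, so a change as broad as this one was not checked.

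The 10 genes and all lists were chosen with earlier results of these data known. Named beside them were, per list, the 2 genes with the smallest adjusted p in each direction among those called in dexamethasone against control with a mean log2 CPM of at least 1, any list gene called for ginsenoside, response check genes, the 3 nearest patterns and neighbours within 100 kb; other genes, markers and Lamb3 were named after their values were seen. The 24 alternatives per comparison were DESeq2 1.42.0, a replicate block, no low-count filter, median-ratio size factors, library totals without composition scaling, only the compared groups, and leaving out each library. Floors and intervals cover counting or replicate error only.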

Additional observations from a re-analysis of the deposited data

How the results depend on the processing

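The 7 genes called with dexamethasone at each dose were called in the same directions under all 24 alternatives, and 8 were called at 10 µM with no low-count filter, the added gene being Plin5. Plin4 with dexamethasone and ginsenoside against dexamethasone alone did not hold its side of the threshold. At 20 µM 1 gene, Plin4, was called with DESeq2, and 1 with only the compared groups. Leaving out a library gave 0 to 1 at 20 µM and 0 to 1 at 10 µM; each 1 came without replicate 2 of the 20 µM group without dexamethasone. The cause was not tested. Fold changes of single genes that changed sign numbered 111 over these settings, all of values not called, and 4 passed the threshold, all of Plin4. The replicate block changed no count of these genes: 7 were called in each dexamethasone contrast and 0 in the others. No consistent pairing of libraries by replicate number was seen, though this check cannot exclude one. Same-numbered deviations correlated at -0.41 to 0.45, over 0.1 in 16 of 45 pairs, and 8 of 18 libraries correlated best with their own number. Over all genes, calls at 20 µM with dexamethasone numbered 57 and ranged from 6 (without replicate 2 of that group) to 341 (without replicate 2 of 20 µM alone); at 20 µM alone they numbered 16 and ranged from 0 (only the compared groups) to 101 (DESeq2); at 10 µM with dexamethasone 4, from 0 to 16 (DESeq2); and at 10 µM alone 1, from 0 to 8. The 3 dexamethasone contrasts gave 6755, 6820 and 7555 calls and stayed within 1.5 times. Depth limits Plin5, at 4 counts or fewer per library.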
